A study of Mus musculus with 10 samples.

Results

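The transcripts of 10 glycolytic enzyme genes (Hk1, Pfkp, Aldoa, Gapdh, Pgk1, Eno1, Eno2, Pkm, Ldha and Ldhb) were followed in retinal ganglion cells (RGCs), the neurons whose axons form the optic nerve, before and after optic nerve crush (ONC). The genes were taken by symbol as enzymes that act from the entry of glucose to the release of lactate, and all 10 were present among the 34254 genes of the count files. The profiled cells came, by the labels, from 129S1/SvImJ wild-type mice of both sexes at 12 weeks of age (P84). RGCs were collected by Thy1 immunopanning, a selection on antibody-coated plates, from pools of 10 retinas, and 6000 cells of each pool were loaded for droplet scRNA-seq. The uninjured group held 6 libraries and the injured group held 4 libraries, collected 2 weeks after ONC. A library is therefore a pool of animals and not an animal, the injured libraries hold RGCs that were still present 2 weeks after ONC, and a lower level within cells cannot be told apart from the loss of cells that had a higher level. The comparison asked how the transcripts of the pathway differ between uninjured and injured RGCs.

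The uninjured libraries held 98, 103, 363, 651, 267 and 201 cells (1683 in all), and the injured libraries held 338, 273, 527 and 471 cells (1609 in all). Total counts of unique molecular identifiers (UMIs, each standing for a captured transcript) lay between 2839693 and 23180399 in the uninjured libraries and between 4698799 and 8860536 in the injured libraries. Median depth per cell was 20437 to 34337 UMIs before injury and 11257 to 14695 UMIs after it. Every cell of all 10 libraries held UMIs of the RGC markers Rbpms, Slc17a6, Sncg and Tubb3. The summed level of 9 pan-RGC markers was 6206 to 7919 CPM (UMIs scaled to a common library total) in uninjured libraries, and it was 4176, 4672, 5303 and 5600 CPM in injured 1 to 4. Of these 9 markers 6 were lower and 1 was higher after injury, beside 22.5% of all genes lower and 21.3% higher, and Sncg was the most abundant.

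Several libraries stood apart before any comparison was made. Injured 3 and injured 4 shared 421 cell barcodes, whereas any other pair had at most 1 in common, so that both were averaged and counted as 1 sample. The 1609 injured barcodes hold 1188 distinct ones when these are counted once. The number of injured cells given in the methods of the study is neither of these. The comparison was between 6 uninjured and 3 injured samples. Cells of injured 3 and 4 carried UMIs of the reporter mCherry in 86.0% and 84.3% of cases, against 7.99% in injured 1, 15.0% in injured 2 and 0 in the uninjured libraries. Xist, which is transcribed from the inactive X chromosome, was found in 62.1% of the cells of injured 1 and in 67.4% of the cells of injured 2, but elsewhere in no more than 0.569% of cells. UMIs of at least 1 of 4 Y-linked genes (Ddx3y, Uty, Eif2s3y and Kdm5d) were present in 40.2% of injured 1 cells and in 36.3% of injured 2 cells, whereas each of the other 8 libraries had them in 88.5% to 97.4% of its cells. These values go against the label of both sexes for the uninjured libraries and for injured 3 and 4, in which almost no cells from females were seen. The nuclear RNA Malat1 took 4.86%, 4.88%, 3.03%, 3.36%, 1.72% and 1.83% of UMIs in uninjured 1 to 6, whereas injured 1 to 4 had 7.09%, 6.09%, 8.01% and 7.95%. Uninjured 5 and 6 thus had the lowest Malat1 shares, and the same libraries had the highest summed level of the glycolytic genes, as given with the results. In Malat1 the uninjured libraries were alike in pairs (1 and 2, 3 and 4, 5 and 6). Whether the libraries of a pair are independent is not given by the labels. An alternative, called similar libraries summed, added up these pairs, injured 1 with injured 2, and injured 3 with injured 4. Nothing in the labels says that libraries came from separate days or animals, and p-values measure only the spread between these samples.

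Markers of other retinal cells were low in sum, but 618 of the 1683 uninjured cells (343 of 651 in uninjured 4) and 391 of the 1609 injured cells held at least 3 markers of another cell type. With these cells left out 6 of the 10 glycolytic genes were lower after injury instead of 7, beside 41.7% of 13256 genes past the threshold, Eno1 being the gene that no longer passed. The summed level of 14 rod markers was 40.1 to 85.5 CPM before injury and 20.7 to 55.8 CPM after it, with Rom1 the most abundant, and 10 amacrine markers summed to 185 to 359 CPM and to 305 to 394 CPM. Mueller glia markers summed to 123 to 201 CPM before and 144 to 176 CPM after injury, and astrocyte markers to 21.1 to 35.9 CPM and 15.0 to 21.7 CPM. Bipolar markers summed to 77.4 to 143 CPM and 108 to 152 CPM, horizontal cell markers to 77.5 to 179 CPM and 67.5 to 78.3 CPM, and microglia and macrophage markers to 5.98 to 20.1 CPM and 13.5 to 25.3 CPM. Cone, endothelial and mural, and red blood cell markers stayed at or below 7.42 CPM in sum. Defining markers at 0 in all libraries were Cnga3 of cones, Vsx1 of bipolar cells, Lhx1 and Sebox of the horizontal cell list, Cdh5 and Kcnj8 of vessels, and Hbb-bt of red blood cells.

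Glycolysis converts glucose into pyruvate in the cytosol, with a net gain of ATP and a reduction of NAD+ to NADH. Pyruvate is then either imported into mitochondria or reduced to lactate by lactate dehydrogenase, a step that restores NAD+ and lets the pathway run on. In the retina photoreceptors and glia are known for making lactate even when oxygen is present, neurons can use lactate as a fuel, and glycolytic enzymes also travel in axons, where they supply ATP locally.

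Because most of the enzymes moved together, the windows around their start sites were searched for ACGTG, the core of the element bound by the hypoxia-inducible factor HIF-1, a known regulator of glycolytic genes. The search covered both strands (ACGTG or CACGT), and overlapping matches, as in CACGTG, the letters of an E box, were merged as 1 site. All 10 genes had RefSeq windows in a table built on GRCm38.p6 (17 windows, 250 bases before to 50 after a start), and each window matched the GRCm39 genome exactly once, at the positions given here. The 4 windows shown hold the annotated main start of the gene, with the motif in capitals. They are the pair of lactate dehydrogenase genes and 2 further genes with at least 2 sites. Of these, Pgk1 fell after injury and Hk1 did not pass the test. The main start is not always the start that a window was drawn from. In the Ldhb window it lies at 142453908, near the beginning of the printed sequence, so that most of this window lies after it. In the Hk1 window it lies at 62176321, and both sites lie after it.
Ldha: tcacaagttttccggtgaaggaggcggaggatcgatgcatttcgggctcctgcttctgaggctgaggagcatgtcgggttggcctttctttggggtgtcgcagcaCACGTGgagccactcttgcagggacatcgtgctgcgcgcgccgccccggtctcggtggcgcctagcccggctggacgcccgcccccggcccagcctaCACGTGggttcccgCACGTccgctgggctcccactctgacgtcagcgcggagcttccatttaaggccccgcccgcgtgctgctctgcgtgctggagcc
Ldhb: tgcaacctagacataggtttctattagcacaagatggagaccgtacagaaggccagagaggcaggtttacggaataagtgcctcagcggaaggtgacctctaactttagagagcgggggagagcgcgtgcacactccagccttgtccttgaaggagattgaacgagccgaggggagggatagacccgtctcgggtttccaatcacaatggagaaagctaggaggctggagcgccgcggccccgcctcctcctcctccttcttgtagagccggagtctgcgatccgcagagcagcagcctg
Pgk1: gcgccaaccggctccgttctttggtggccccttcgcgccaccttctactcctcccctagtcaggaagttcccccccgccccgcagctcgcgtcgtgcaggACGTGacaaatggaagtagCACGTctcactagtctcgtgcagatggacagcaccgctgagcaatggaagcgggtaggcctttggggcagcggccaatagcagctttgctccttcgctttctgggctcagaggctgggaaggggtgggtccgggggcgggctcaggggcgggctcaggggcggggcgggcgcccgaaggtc
Hk1: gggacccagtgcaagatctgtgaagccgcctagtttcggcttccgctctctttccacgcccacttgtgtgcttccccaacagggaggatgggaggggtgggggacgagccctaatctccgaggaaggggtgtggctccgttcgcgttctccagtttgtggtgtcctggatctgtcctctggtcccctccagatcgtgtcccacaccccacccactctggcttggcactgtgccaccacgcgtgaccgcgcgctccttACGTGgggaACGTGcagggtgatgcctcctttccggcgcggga
The Ldha window (chr7:46494978-46495277, plus strand) held 3 sites and the Ldhb window (chr6:142453634-142453933, minus strand) held 0. The Pgk1 window (chrX:105230456-105230755, plus strand) held 2 sites, and so did the Hk1 window (chr10:62176151-62176450, minus strand). Aldoa and Gapdh each had 1 site in the window of the main start, Pkm had 2 sites only in the window of another start, and Pfkp, Eno1 and Eno2 had 0. A site was thus present for 6 of 10 members (60%), as against 5886 of all 27025 genes with a window (21.8%) and 8 of 19 other glycolytic enzyme genes (42.1%). The members have on average more windows per gene than all genes do, and counted by window 7 of their 17 (41.2%) held a site, beside 19.6% of all 32851 windows. Of all windows 2.69% held at least 2 and 0.414% held at least 3. These matches describe letters in a window, and binding was not measured.

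After injury 7 of the 10 glycolytic genes were lower (Aldoa, Gapdh, Pgk1, Eno1, Pkm, Ldha and Ldhb), 0 were higher, and Hk1, Pfkp and Eno2 did not pass the test. In the same fit 43.8% of the 14234 genes tested passed the threshold (adjusted p under 0.05), 22.5% as lower and 21.3% as higher. Among the 1449 genes at least as abundant as Hk1, the least abundant member, 46.1% passed and 24.6% were lower. The median log2 fold change of the 10 genes was -0.98, beside -0.03 for all genes tested and -0.07 for the abundant ones. In 6 of the 10 genes every injured sample lay below every uninjured sample, as was the case for 20.9% of all genes, while 42.9% of all genes had no overlap in either direction. In cells with 3 to 5% of UMIs from Malat1, 6 of the 10 genes were lower, beside 32.7% of 10740 genes past the threshold. With similar libraries summed, 5 of the 10 were lower, beside 27.5% of 15601 genes past the threshold. In alternatives chosen after seeing the data, 7 of 10 were lower without uninjured 5 and 6 (54.1% of all genes past the threshold), and 5 of 10 in cells without a UMI of mCherry (37.2%).

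The summed level of the 10 genes was 7831, 9266, 7765, 7593, 13738 and 14509 CPM in uninjured 1 to 6, and 4332, 4715 and 3886 CPM in injured 1, injured 2 and the averaged pair, CPM being scaled here and for the further lists of metabolism with TMM factors, which correct library totals for differences in composition. Uninjured 5 and 6 were far above the other uninjured libraries, and the groups did not overlap with or without them. The means were 10117 CPM ± 3170 (SD, n = 6) and 4311 CPM ± 414 (SD, n = 3), a ratio of 0.426. The injured samples lay closer together than the uninjured ones. The plot of the 10 genes by sample shows these values gene by gene.

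**Figure D1:**
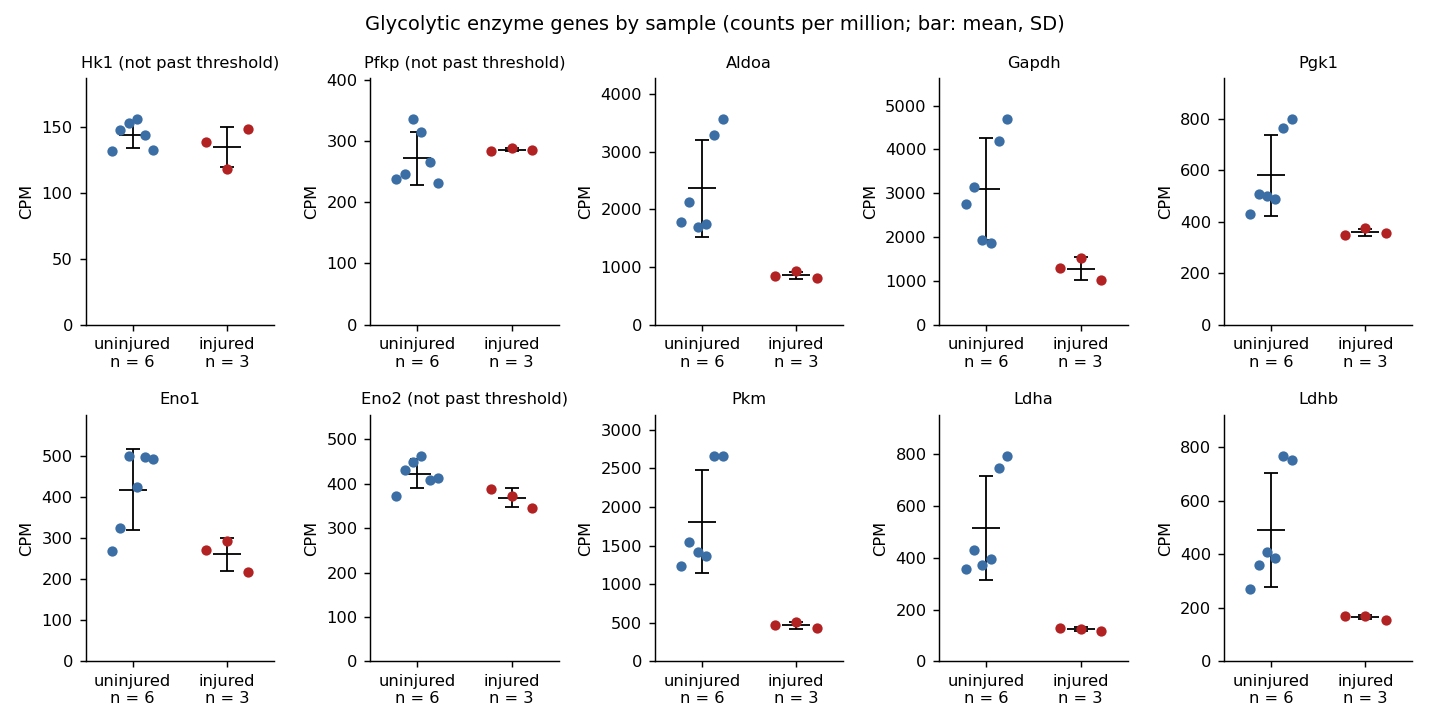
Level of each glycolytic gene in CPM (y axis, from 0) in the 6 uninjured (blue) and 3 injured (red) samples, with the mean and SD as bars. Uninjured 5 and 6 are the upper pair in Aldoa, Gapdh, Pgk1, Pkm, Ldha and Ldhb, where all 3 injured samples lie below all 6 uninjured samples, whereas the groups overlap in Hk1, Pfkp, Eno1 and Eno2.

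Hk1 encodes hexokinase 1, which phosphorylates glucose at the entry of the pathway and binds to the outer mitochondrial membrane. Its level was 132 to 156 CPM in the 6 uninjured samples (median 146), and 139, 118 and 148 CPM in injured 1, injured 2 and the averaged pair. Only injured 2 lay below all uninjured samples. The log2 fold change was -0.10 (95% interval -0.37 to 0.17), with a Benjamini-Hochberg adjusted p of 0.561 (quasi-likelihood test of edgeR). Pfkp encodes the platelet type of phosphofructokinase, the committed and most tightly controlled step. Pfkp was at 231 to 335 CPM before injury (median 256) and at 284, 289 and 285 CPM after it. All 3 injured samples were inside the uninjured range, with a log2 fold change of 0.07 (95% interval -0.26 to 0.41; edgeR adjusted p = 0.738 after Benjamini-Hochberg adjustment). The sign of this small difference changed with the processing, being -0.01 with library totals alone and -0.05 in cells thinned to 8000 UMIs. The intervals of Hk1 and Pfkp bound the size of a difference and do not show that the levels were equal.

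Aldoa encodes aldolase A, which splits fructose 1,6-bisphosphate into triose phosphates. Aldoa was at 1694 to 3557 CPM in the uninjured samples (median 1954), and at 841, 930 and 814 CPM in the injured ones. The 3 injured samples lay close together below the uninjured range, the upper end of which was set by uninjured 5 and 6 at 3293 and 3557 CPM. Aldoa fell by 1.46 on the log2 scale (SE 0.29; edgeR with Benjamini-Hochberg adjustment, adjusted p = 0.00161), and by 1.10 when uninjured 5 and 6 were left out. Gapdh encodes the dehydrogenase that oxidizes glyceraldehyde 3-phosphate and makes the NADH of the pathway. Gapdh was at 1866 to 4685 CPM before injury (median 2949), and at 1293, 1531 and 1023 CPM after it. Uninjured 3 and 4 were the lowest of their group (1942 and 1866 CPM), yet above injured 2, the highest of the injured samples. Gapdh fell by 1.27 (SE 0.32; edgeR with Benjamini-Hochberg adjustment, adjusted p = 0.00734), and by 0.92 without uninjured 5 and 6.

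Pgk1, on the X chromosome, encodes phosphoglycerate kinase 1, which makes ATP at the next step and whose promoter window is printed with its 2 sites. Pgk1 was at 429 to 798 CPM in the uninjured samples (median 504), and at 347, 375 and 356 CPM in the injured ones. The groups did not overlap, with uninjured 1 (429 CPM) and injured 2 (375 CPM) nearest to each other. Pgk1 fell by 0.69 on the log2 scale (SE 0.22; edgeR with Benjamini-Hochberg adjustment, adjusted p = 0.0235), and by 0.43 without uninjured 5 and 6. In cells without a UMI of Xist the change was -0.71 (edgeR with Benjamini-Hochberg adjustment, adjusted p = 0.0233), and in cells with 3 to 5% of UMIs from Malat1 it was -0.34 and no longer passed (adjusted p = 0.122). The call was also lost without injured 1 (-0.67, edgeR adjusted p = 0.0870) and without injured 2 (-0.72, edgeR adjusted p = 0.0667).

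Enolase, which forms phosphoenolpyruvate, is encoded by the widely used Eno1 and by Eno2, the form that is enriched in neurons. Eno1 was at 269 to 499 CPM before injury (median 458), and at 272, 292 and 216 CPM after it. Here the groups overlapped, since uninjured 1 (269 CPM) lay below injured 1 and injured 2, and uninjured 2 (324 CPM) was the next lowest of its group. Eno1 fell by 0.68 on the log2 scale (SE 0.22; edgeR with Benjamini-Hochberg adjustment, adjusted p = 0.0264). It did not pass in cells without markers of another cell type (-0.61, edgeR adjusted p = 0.0515), nor without uninjured 3 (-0.61, edgeR adjusted p = 0.0503), without injured 1 (-0.71, edgeR adjusted p = 0.0712) or without injured 2 (-0.77, edgeR adjusted p = 0.0503). Eno2 was at 372 to 462 CPM in uninjured samples (median 422), and at 388, 372 and 345 CPM in injured samples. Injured 1 and 2 lay at the lower edge of the uninjured range, and the averaged pair was below it. The log2 fold change of Eno2 was -0.20 (95% interval -0.49 to 0.09; edgeR with Benjamini-Hochberg adjustment, adjusted p = 0.250).

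Pkm encodes pyruvate kinase M, which makes pyruvate and ATP in the last step before lactate. The 3' counts do not separate its splice forms M1 and M2. Pkm was at 1229 to 2656 CPM in uninjured samples (median 1480), and at 468, 514 and 426 CPM in injured samples. Uninjured 5 and 6 were both at 2656 CPM, and every injured sample was far below the lowest uninjured one. Pkm fell by 1.95 on the log2 scale (SE 0.30; edgeR with Benjamini-Hochberg adjustment, adjusted p = 2.92e-04), and 5.27% of all genes tested had a lower fold change. Without uninjured 5 and 6 the change was -1.57, and in cells with 3 to 5% of UMIs from Malat1 it was -1.58.

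Lactate dehydrogenase is a tetramer of the products of Ldha, the form favoured in lactate-producing tissue, and Ldhb, the form favoured in tissue that oxidizes lactate. Ldha was at 355 to 792 CPM before injury (median 412), and at 131, 124 and 116 CPM after it. The injured samples were nearly equal and far below uninjured 1, the lowest uninjured sample. Ldha, with 3 motif sites in the window shown, fell by 2.06 on the log2 scale (SE 0.31; edgeR with Benjamini-Hochberg adjustment, adjusted p = 2.12e-04), the largest decrease among the 10 genes, and 4.69% of all genes had a lower fold change. Ldhb, with 0 sites, was at 271 to 768 CPM (median 397) and at 170, 170 and 157 CPM. Uninjured 1 was the lowest uninjured sample for both genes, and the groups did not overlap in either. Ldhb fell by 1.57 on the log2 scale (SE 0.33; edgeR with Benjamini-Hochberg adjustment, adjusted p = 0.00254), by 1.12 without uninjured 5 and 6, and by 0.81 in cells with 3 to 5% of UMIs from Malat1. For Ldha the same alternatives gave -1.66 and -1.59. A link between the number of motif sites and the size of the change was not tested.

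The counts behind these values were high, the lowest being 391 UMIs for Hk1 in uninjured 1. Related genes that could share reads with a member were low or absent in the files, in CPM of the library totals (Eno1b at 2.99 to 7.94 CPM, Hk1os at 3.39 to 9.51 CPM, Gapdhs at 0.528 to 5.05 CPM, Eno3 at 3.35 to 7.70 CPM, and Pgk2 at 0). Processed pseudogenes of these enzymes were not counted in the files, so that reads shared with them remain an uncertainty of the levels, Gapdh included.

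The ratio of Ldha to Ldhb and that of Eno1 to Eno2 were formed within each sample, and only their change is compared, since capture at the 3' end can differ between genes. Ldha to Ldhb was 1.31, 1.18, 0.911, 1.03, 0.974 and 1.05 in uninjured 1 to 6, while injured 1, injured 2 and the averaged pair had 0.771, 0.728 and 0.741. All injured ratios were below all uninjured ones. Uninjured 5 and 6, which had the highest levels of both genes, had ratios within the range of the other uninjured libraries. The mean log2 ratio fell by 0.52 (a fold change of 0.699), with p = 0.0238 in an exact permutation test, two-sided, a value that 6 against 3 samples cannot go below, and an adjusted p of 0.0476 over both ratios after Benjamini-Hochberg. The difference was -0.79 in cells with 3 to 5% of UMIs from Malat1 (exact permutation test, adjusted p = 0.0476). The call was lost in 14 of 24 alternatives, among them those that left out any one of 8 of the 10 libraries, with differences of -0.56 to -0.46 over all 10, the exception being injured 3 or injured 4. The groups did not overlap in any of these, and the exact permutation p was the smallest that the fewer samples allow (0.0357 or 0.0714), so that these losses say nothing about stability. It was also lost in cells without a UMI of Xist, where the difference was -0.47 (exact permutation test, adjusted p = 0.119) and the groups overlapped. Without uninjured 5 and 6 the difference was -0.56, with groups that did not overlap, but 4 against 3 samples cannot reach a smaller exact permutation p than 0.0571 (adjusted p = 0.114). With similar libraries summed the difference was -0.52 and the groups did not overlap. There the exact permutation p was 0.2, a value that 3 against 2 samples cannot go below.

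Eno1 to Eno2 was 0.723, 0.751, 1.11, 0.919, 1.22 and 1.19 in uninjured 1 to 6, and 0.702, 0.786 and 0.627 in the injured samples. Uninjured 1 and 2 had ratios like those of the injured samples, and injured 2 lay above both, so that the groups overlapped. The mean log2 ratio differed by -0.46, which did not pass (exact two-sided permutation test, p = 0.0952, adjusted p = 0.0952). The size of this difference depended on the cells and samples used, being -0.27 in cells without markers of another cell type, -0.30 without uninjured 5 and 6, and -0.85 in cells without a UMI of mCherry, and it did not pass in any of them. In cells without mCherry the SD of the log2 ratio over the injured samples was 0.81, beside 0.16 in all cells.

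Within cells, the share of Ldha was taken where Ldha and Ldhb had at least 10 UMIs together. Its median over cells was 57.1%, 53.5%, 48.8%, 51.5%, 50% and 51.4% in uninjured 1 to 6, whereas injured 1 to 4 had 43.8%, 48.7%, 33.3% and 36.8%. Injured 2 lay just below uninjured 3, the lowest uninjured library, and injured 3 and 4 were the lowest of all. Only 9.13% to 14.5% of the cells of an injured library had enough UMIs, against 71.4% to 93.5% before injury, so that the injured values describe the minority of cells with the most lactate dehydrogenase transcripts. The Eno1 share of Eno1 and Eno2 had medians of 38.8% to 57.6% over the uninjured libraries and of 36.4% to 41.4% over the injured ones, in 22.7% to 44.7% of injured cells.

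**Figure D2:**
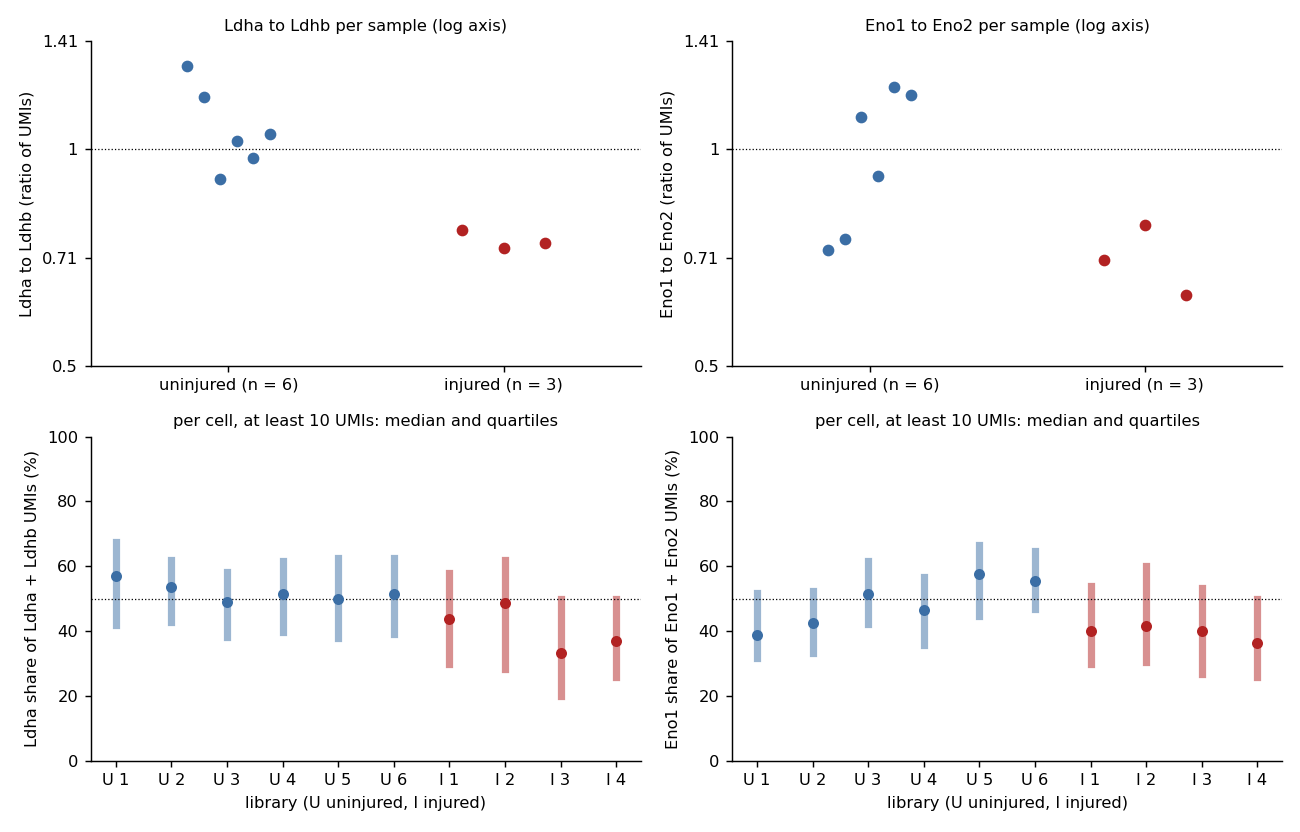
Upper panels, ratio of UMIs of Ldha to Ldhb and of Eno1 to Eno2 per sample (log axis, dotted line at 1); lower panels, the Ldha and Eno1 shares per cell in each library (% of the UMIs of both genes, median and quartiles). The injured Ldha to Ldhb ratios of 0.728 to 0.771 lie below the uninjured ones of 0.911 to 1.31, whereas the Eno1 to Eno2 ratios overlap.

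The lower levels were seen in most injured cells. The median cell held 93.9 ± 26.8 UMIs of the 10 genes per 10000 UMIs in the uninjured libraries (SD, n = 6) and 35.1 ± 3.20 in the injured samples (SD, n = 3). With every cell thinned to 8000 UMIs, which left out 29 uninjured and 233 injured cells as too shallow, the values were 94.6 ± 28.3 and 35.5 ± 3.65. In thinned cells the lower quartile of an uninjured library had a median of 64.1 per 10000 over the 6 libraries. Below this value lay 89.5%, 90.0%, 89.3% and 92.2% of the thinned cells of injured 1 to 4, as against 29.5%, 21.6%, 46.4%, 45.5%, 4.35% and 1% of the cells of uninjured 1 to 6. Uninjured 3 and 4 thus had the largest uninjured share of cells with a low level, and uninjured 5 and 6 had almost none.

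Shares of cells with a UMI differed most for the lactate dehydrogenase genes. Among thinned cells Ldha UMIs were present in 88.8% ± 6.95 before and in 49.9% ± 5.59 after injury (96.5% and 62.8% before thinning), and Ldhb in 88.4% ± 7.19 and 56.0% ± 3.69 (96.6% and 69.1% before thinning). Pkm was found in 99.2% ± 0.803 and 87.8% ± 3.73, and Pgk1 in 93.9% ± 4.37 and 83.9% ± 2.51 of thinned cells. In these 4 genes every injured sample lay below every uninjured one, as was the case in this measure for 19.2% of all genes tested and for 27.3% of the 1449 genes at least as abundant as Hk1 (33.7% and 39.1% without overlap in either direction). Hk1, Pfkp, Aldoa, Gapdh, Eno1 and Eno2 overlapped between the conditions in this measure, with Hk1 in 66.7% and 60.5% of thinned cells. Aldoa was in 98.6% and 95.9%, and Gapdh in 98.6% and 96.9%. For such abundant members, Pkm included, the share before injury was near its upper limit. It can therefore show little of a fall in level, and it does not rank them against the lactate dehydrogenase genes.

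Counts mostly varied more between cells than sampling alone gives, for which the variance would equal the mean. The excess of the variance over the mean was divided by the square of the mean, because the ratio of variance to mean alone grows with the level. In thinned cells this excess was 0.325 ± 0.192 for Gapdh in the uninjured libraries (SD, n = 6; 0.101 to 0.547) and 0.264 ± 0.128 in the injured samples (SD, n = 3), and 0.194 ± 0.0876 and 0.201 ± 0.0789 for the 10 genes summed, with samples that overlapped in both. Hk1 had 0.0756 ± 0.147 and 0.152 ± 0.0768, and in uninjured 5, uninjured 6 and injured 2 its excess was above that of Gapdh. The lowest uninjured value of Hk1 was -0.167, so that its counts did not exceed sampling in every library. The excess of Ldha was 0.418 ± 0.102 and 0.583 ± 0.229, also with overlap. It was 0.354 ± 0.0949 and 0.775 ± 0.145 for Ldhb, 0.229 ± 0.0896 and 0.479 ± 0.0767 for Pkm, and 0.0886 ± 0.0523 and 0.173 ± 0.0195 for Pfkp. In these 3 of the 10 genes every injured sample lay above every uninjured one, as in 20.6% of 1445 genes at least as abundant as Hk1 (21.2% without overlap in either direction).

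**Figure D3:**
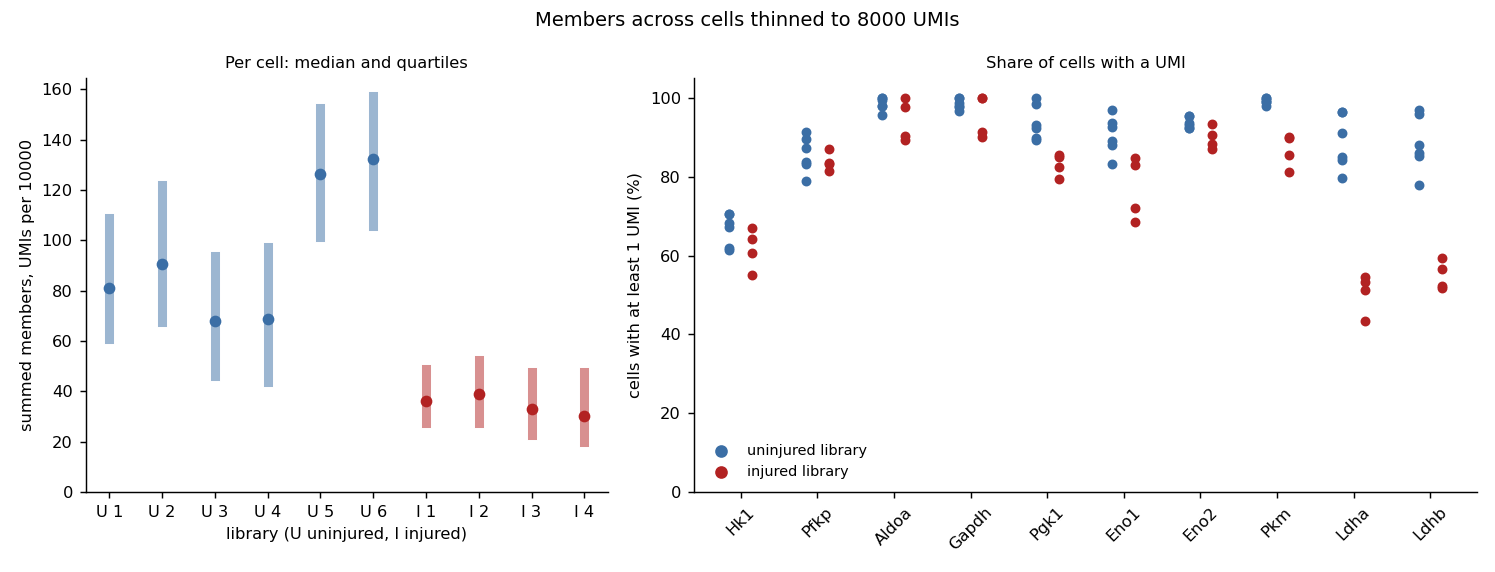
Left, UMIs of the 10 genes per 10000 UMIs in cells thinned to 8000 UMIs (points, median; bars, quartiles) in each library; right, percent of thinned cells with at least 1 UMI of each gene, 1 point per library. Medians in the injured samples average 35.5, below the uninjured mean of 94.6, and Ldha and Ldhb show the widest gap in the share of cells.

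Most members varied together from cell to cell. Pearson's r between a gene and the sum of the other members across the cells of a library (log of 1 plus the level) had a median of 0.892 over the uninjured libraries and 0.657 over the injured samples for Aldoa, and of 0.847 and 0.696 for Gapdh. It was 0.828 and 0.593 for Pkm, 0.823 and 0.538 for Pgk1, 0.756 and 0.380 for Eno1, 0.738 and 0.517 for Ldhb, and 0.709 and 0.422 for Ldha. The 3 genes that did not pass the test between conditions were also those that varied least with the others, with 0.272 and 0.298 for Eno2, 0.135 and 0.0818 for Hk1, and -0.0433 and 0.154 for Pfkp. These values describe cells that share a library and differ in depth, and low counts lower r. The sum of the members itself had a median r of 0.204 and 0.285 with total UMIs and of -0.166 and -0.565 with Malat1. In the latter, injured 1 and 2 had -0.584 and -0.565 and the averaged pair had -0.212. Uninjured 1 to 6 had -0.131, -0.014, -0.480, -0.508, 0.062 and -0.202. Uninjured 3 and 4 were thus near injured 1 and 2, and the averaged pair lay within the uninjured range. The closest pair was Aldoa and Gapdh, with a mean r of 0.814 over the 10 libraries (0.543 to 0.958), in which injured 3 and 4 count separately.

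Outside the members, 6860 genes with a UMI in at least 20% of the cells of every library were ranked by their mean r with the sum over the same 10 libraries. Tpi1 (0.787) and Pgam1 (0.737), which encode triose phosphate isomerase and phosphoglycerate mutase, came first, while Gpi1, which encodes the isomerase between hexokinase and phosphofructokinase, was at rank 46 (0.595). Tpi1 and Pgam1 were followed by Slc25a4 (0.719), Ppia (0.719), Ubb (0.701), Rab3a (0.699), Ckb (0.694), Mif (0.685), Mdh1 (0.677) and Stmn3 (0.677). Slc25a4 encodes the mitochondrial ADP/ATP carrier, Ckb brain creatine kinase and Mdh1 cytosolic malate dehydrogenase. Of the 10, Tpi1, Pgam1, Slc25a4, Rab3a, Ckb and Mif fell after injury, and Ppia, Ubb, Mdh1 and Stmn3 did not pass the test.

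Thinned cells with UMIs of a marker of an RGC class were compared with the other cells of the same sample, with no test, where every library of the sample had at least 10 such cells. A UMI of a marker does not by itself place a cell in the class, and a background share was not measured. In cells with Opn4, the gene of melanopsin, the summed members were lower than in the other cells in 3 of 3 uninjured samples (66.0 ± 24.5 and 93.8 ± 31.2 per 10000) and higher in 3 of 3 injured samples (42.1 ± 1.63 and 38.8 ± 2.92). The uninjured values rest on 10 to 14 cells a sample, and those of injured 1 and injured 2 on 15 and 13 cells. The averaged pair held 59, counted over both of its libraries, which share barcodes. How many of all genes change direction in this way was not measured. In Opn4 cells Eno1 was lower in both conditions (median log2 difference -0.72 and -0.77). Cartpt, known as a marker of direction-selective RGCs, had UMIs in 52.0% to 61.5% of thinned uninjured cells but in 6.72% to 9.56% of thinned injured cells, so that the cells with Cartpt are not the same population in the conditions. They had a higher sum than the other cells in 5 of 6 uninjured and 3 of 3 injured samples (46.1 ± 3.32 and 38.4 ± 3.04 per 10000 after injury), with Ldha higher in the same numbers of samples. Cells with Foxp2 had less Ldha (median log2 difference -0.50), Hk1 (-0.25), Pgk1 (-0.23) and Eno1 (-0.12) than the other cells in 6 of 6 uninjured samples. After injury this held for Ldha and Hk1 in 1 of 3 samples and for Pgk1 and Eno1 in 2 of 3. Cells with Tbr1 had more Ldhb in 4 of 4 uninjured samples with enough cells (median log2 difference 0.50). The same held for Hk1 (0.46), Pkm (0.14) and the summed members (0.08), but Pkm was all but equal in uninjured 3 (0.0006). The sum differed by 0.02, 0.49, 0.10 and 0.06 in uninjured 3 to 6, so that only uninjured 4 had a clear difference. Of the injured samples only injured 1 had 10 such cells in every library. The averaged pair held 25, counted over both of its libraries, which share barcodes, but fewer than 10 in one of them. In injured 1 Hk1 went the other way (-0.53), while Ldhb (0.41), Pkm (0.52) and the sum (0.22) were higher. Cells with both Spp1 and Kcng4, markers of alpha RGCs, were too few in every sample for a value.

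Most of the other tested enzymes of glycolysis were also lower after injury. Of 22 further genes 14 were tested, 8 were lower (57.1%, beside 22.5% of all genes) and 1 was higher, with a median log2 fold change of -1.03. Aldoc, the brain form of aldolase, was at 471 CPM ± 224 before injury (SD, n = 6) and 41.3 CPM ± 2.78 after it (SD, n = 3), and fell by 3.51 on the log2 scale (edgeR with Benjamini-Hochberg adjustment, adjusted p = 3.61e-05). Pfkl, the liver type of phosphofructokinase, was at 150.2 CPM ± 51.3 and 34.2 CPM ± 1.81 and fell by 2.13, in contrast to Pfkp, which did not pass. Tpi1 was at 1594 CPM ± 603 and 425 CPM ± 32.2 and fell by 1.91, and Pgam1 fell by 1.55. Gpi1, Pfkm, Bpgm and Galm were also lower. Adpgk, an enzyme of the endoplasmic reticulum that phosphorylates glucose with ADP, was the gene that rose, from 10.3 CPM ± 2.27 to 28.0 CPM ± 7.71 (log2 fold change 1.45; edgeR with Benjamini-Hochberg adjustment, adjusted p = 1.33e-04). Gapdhs, Eno3, Eno4 and Ldhd were among those that did not pass. The plot of fold changes along the pathway sets them beside the members.

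**Figure D4:**
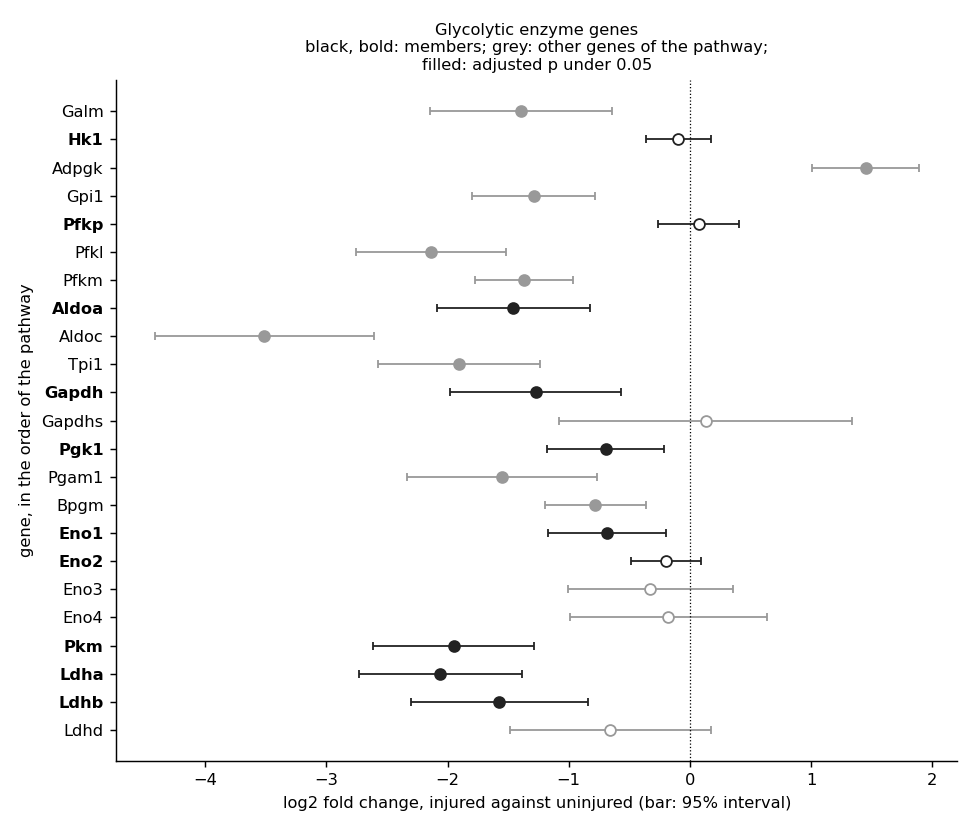
Log2 fold change of injured against uninjured samples (x axis; bars, 95% interval) for the members (black, bold) and other glycolytic genes (grey), in pathway order, filled where the adjusted p was under 0.05. Aldoc is lowest at -3.51, the members Pkm and Ldha lie near -2, and Adpgk at 1.45 is the only filled point above 0.

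Genes that supply or control the pathway were mixed in direction. Of 13 control genes 9 were tested, 2 were higher and 1 was lower (33.3% past the threshold, beside 43.8% of all genes). Myc, a transcription factor known to act on glycolytic genes, rose from 2.20 CPM ± 1.31 to 25.1 CPM ± 12.6 (log2 fold change 3.66), Pfkfb2, which sets the level of an activator of phosphofructokinase, rose by 0.60, and Tigar, which degrades that activator, fell by 0.90. Of 13 transporter genes 11 were tested, 4 were higher and 6 were lower (90.9% past the threshold). The monocarboxylate transporter gene Slc16a1 rose from 12.1 CPM ± 1.67 to 41.4 CPM ± 12.1 (log2 fold change 1.76; edgeR with Benjamini-Hochberg adjustment, adjusted p = 1.13e-05), and Slc16a7, the neuronal form, from 33.6 CPM ± 4.14 to 65.5 CPM ± 1.59 (0.97). The glucose transporter genes Slc2a12 (1.76) and Slc2a1 (0.68, with overlapping samples) rose too. Slc16a3, which exports lactate, fell by 1.66, Slc2a6 fell by 1.92, Slc2a8 fell by 1.56, and Emb, an accessory protein of the monocarboxylate transporters, fell by 1.23. Where Malat1 took 3 to 5% of a cell's UMIs, Slc16a7 (0.26), Slc2a1 (0.55), Slc16a3 (-0.79), Slc2a6 (-0.86), Slc2a8 (-1.03) and Tigar (-0.61) did not pass, and Slc2a1 did not pass without injured 1 (0.75) or in cells without mCherry (0.55) either.

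Downstream of pyruvate, the shares of genes past the threshold are to be read beside the 43.8% of all genes. Of 14 genes for the entry of pyruvate into mitochondria 13 were tested, 0 were higher and 5 were lower (38.5% past the threshold), with a median of -0.30. Pdk1, a kinase that inhibits pyruvate dehydrogenase, went from 46.9 CPM ± 5.33 to 10.6 CPM ± 1.30 (log2 fold change -2.15; edgeR with Benjamini-Hochberg adjustment, adjusted p = 7.91e-07), and Pdk2 fell by 2.18. The phosphatase gene Pdp2, which has the opposite action, fell by 0.68, the pyruvate carboxylase gene Pcx fell by 0.75 and the pyruvate carrier gene Mpc2 fell by 0.69. Of 18 genes of the tricarboxylic acid cycle, all tested, 1 was higher (Sdhc, 0.46) and 2 were lower (Idh3b, -0.75, and Sucla2, -0.38), 16.7% in all, with a median of -0.11. Of 9 genes of the shuttles that carry the electrons of cytosolic NADH into mitochondria 8 were tested, Got2 (0.67) and Gpd2 (0.49) were higher, and Slc25a11 was lower (-0.96), 37.5% in all, with a median of 0.01. Several of these calls were not stable. Idh3b lost its call in 11 of 30 alternatives, among them those without uninjured 2 (-0.77), uninjured 5 (-0.61), uninjured 6 (-0.60), injured 1 (-0.77) or injured 2 (-0.73), and its change was -0.36 without uninjured 5 and 6. Sucla2 lost its call in 5, among them those without injured 1 (-0.37) or injured 2 (-0.34), and Mpc2 and Pdp2 lost theirs without injured 1 (-0.65 and -0.60). Where Malat1 took 3 to 5% of a cell's UMIs, Idh3b (-0.20), Sucla2 (-0.28), Mpc2 (-0.27) and Slc25a11 (-0.39) did not pass, and in cells without mCherry Sdhc (0.15), Got2 (0.53), Mpc2 (-0.98), Pdp2 (-0.64) and Idh3b (-0.98) did not. Gpd2 did not pass in thinned cells (0.36).

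Side branches of the pathway were tested as well. Of 8 pentose phosphate genes Taldo1 (0.97) and Rpia (0.67) rose, and Pgd (-0.88), Tkt (-0.65) and G6pdx (-0.64, with overlapping samples) fell. Of 10 glycogen genes Pgm2 (2.76) and Ugp2 (0.44) rose, and Pygm (-2.91), Gyg (-1.34), Pygl (-1.32), Pgm1 (-1.09) and Gbe1 (-0.81) fell. Of 15 HIF-1 target genes outside glycolysis 13 were tested, 2 were higher and 4 were lower, with a median of -0.18. Ndrg1 rose from 9.67 CPM ± 3.98 to 84.8 CPM ± 14.7 (log2 fold change 3.20) and Ero1a rose by 0.52, whereas Bnip3 (-1.86), Egln3 (-2.29, with overlapping samples), Ankrd37 (-0.72) and P4ha1 (-0.64) fell. Among these side branches G6pdx lost its call without uninjured 3 (-0.59), uninjured 4 (-0.60) or injured 1 (-0.67), and Ankrd37 without injured 1 (-0.62) or injured 2 (-0.75). Where Malat1 took 3 to 5% of a cell's UMIs, Tkt (-0.29), Rpia (0.56), G6pdx (-0.52) and Ero1a (0.33) did not pass, and in cells without mCherry Taldo1 (0.54), Ugp2 (0.36), Gbe1 (-0.42) and G6pdx (-0.57) did not. In thinned cells Rpia (0.68), G6pdx (-0.58) and Ankrd37 (-0.54) did not pass, and in cells without a UMI of Xist G6pdx (-0.60) and Pygl (-0.95) did not. Over all these lists together, 104 of 122 genes were tested, 16 were higher and 35 were lower (49.0% past the threshold, close to the 43.8% of all genes), with a median of -0.29, beside -0.98 for the 10 members.

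**Figure D5:**
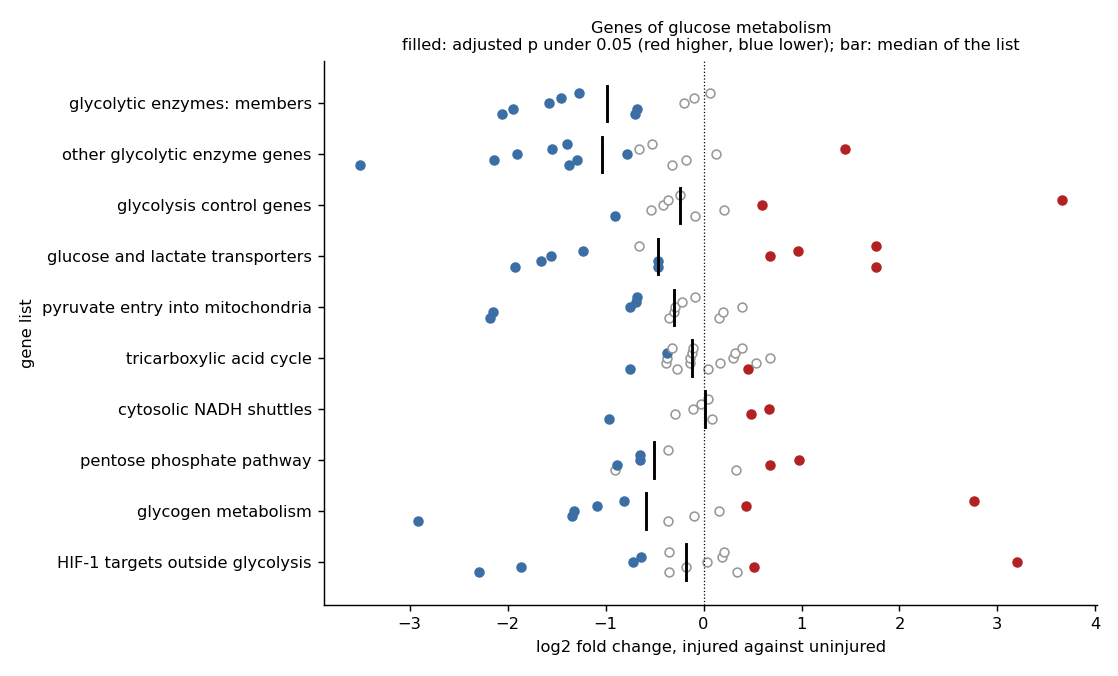
Log2 fold change (x axis) of each tested gene in the lists of glucose metabolism, filled where the adjusted p was under 0.05 (red, higher; blue, lower) with the median of each list as a bar. The members (median -0.98) and the other glycolytic enzymes (-1.03) have the lowest medians, and the shuttles of cytosolic NADH (0.01) are closest to 0.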

How the data were processed

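Counts of UMIs per gene and cell were used as deposited by the authors, with no normalization; the submitters' processing notes name Cell Ranger 7.0.1 and mm39. The labels give a v3 kit, a NovaSeq instrument and depletion of macrophages, the methods of the paper give an earlier kit, instrument and software version and depletion of amacrine cells as well, and the series text adds a FACS step, so that the kit of these libraries is uncertain.

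The limits set for cells (500 genes or more, no more than 20% of UMIs from mitochondria, no more than 150000 UMIs) were met by every deposited cell. No doublet caller was run; an alternative left out cells holding 3 or more markers of any one other retinal cell type. UMIs were summed per library, injured 3 and 4 were averaged, and 9 samples entered edgeR 4.0.16 in R 4.3.3 (filterByExpr, TMM factors, robust quasi-likelihood test, condition alone, Benjamini-Hochberg adjustment over all 14234 genes tested). CPM values of the glycolytic genes and the metabolic lists carry the TMM factors, and those of cell markers, related genes and mCherry use library totals alone. Ratios used an exact two-sided permutation test. A gauge of free RNA in droplets is not reported here. Alternatives used DESeq2 1.42.0, limma 3.58.1, other scaling, filters, cells and samples. Python 3.11.15, numpy 2.4.6, scipy 1.17.1, pandas 2.3.3 and matplotlib 3.10.9 were used for cells, sequences and plots, and gene starts came from the GENCODE annotation of GRCm39.

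The members and the gene lists were chosen with earlier results of these data known. All members are named. From each further metabolic list up to 4 higher and 4 lower genes past the threshold with the largest fold change and an average log2 CPM of at least 3 are named, with every gene of a list whose count is 5 or fewer, and the 10 genes with the highest mean r with the summed members.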

Additional observations from a re-analysis of the deposited data

Results flagged for a closer look

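Cells with UMIs of Opn4, Foxp2 or Cartpt were set against the other cells of the same sample for the 10 genes and their sum, which gives 33 combinations. In 5 of these, all in cells with Opn4, the difference went one way in every uninjured sample and the opposite way in every injured sample, and the difference between conditions was not tested. The median log2 difference was -0.54 before injury and 0.14 after it for the summed members, -0.25 and 0.73 for Ldha, -0.65 and 0.65 for Ldhb, -0.39 and 0.38 for Aldoa, and -0.87 and 0.14 for Pkm. Only 3 uninjured samples had at least 10 such cells, with 10 to 14 cells each, and injured 1 and injured 2 had 15 and 13. The differences of the sum in the injured samples were small (0.05 to 0.18). Most of the 10 genes vary together and the sum contains them, so that the 5 are not separate observations. The share of all genes with such a pattern was not measured, and the pattern cannot be called particular to these genes.

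The reporter mCherry, which the labels do not mention, was at 79.5 CPM in injured 1, 343 CPM in injured 2, 2153 CPM in injured 3 and 2046 CPM in injured 4, and at 0 in the 6 uninjured libraries. Its source was not tested. In cells without a UMI of mCherry the log2 fold change was -2.35 for Ldha and -2.20 for Pkm, beside -2.06 and -1.95 in all cells.

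Of 37 groups of 6 samples examined for a single value far from the rest, 0 held one. A pair of high values, as in uninjured 5 and 6, is not seen in this way.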

How the results depend on the processing

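Aldoa, Gapdh, Pkm, Ldha and Ldhb were lower and past the threshold in all 30 alternatives, with log2 fold changes from -1.75 to -1.10 (Aldoa), -1.54 to -0.87 (Gapdh), -2.20 to -1.57 (Pkm), -2.35 to -1.59 (Ldha) and -1.86 to -0.81 (Ldhb). Pgk1 lost its call in 6 and Eno1 in 7 of the 30. Eno1 lost it in cells without markers of another cell type (-0.61, edgeR adjusted p = 0.0515, beside 0.00615 to 0.131 over its alternatives; the cause was not tested), and both lost it in injured 1 and 2 alone and similar libraries summed, where there are fewer samples; where it was lost in cells without mCherry (-1.02 and -0.89) the cause was not tested. Hk1 stayed between -0.27 and -0.00 and did not pass. Pfkp changed sign with library totals alone (-0.0063), in cells thinned to 8000 UMIs (-0.047) and in libraries 1 to 4 with no replicate block (-0.012), and did not pass in any. The number of members past the threshold was 5 to 8, and 5 to 7 with 1 library left out.

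The number of genes past the threshold was 3516 in cells with 3 to 5% of UMIs from Malat1, which leaves fewer cells and genes, and 4947 to 6404 with 1 library left out. The related lists had 51 genes past the threshold, and 32 to 70 over the alternatives. The lowest number came when similar libraries were summed, which leaves 5 samples, and it was 42 to 55 with 1 library left out. For the 45 named genes of these lists, 1260 of 1338 values had the same direction and call, 78 lost the call and 0 changed sign. The fits with fewer samples (similar libraries summed, and injured 1 and 2 alone) lost calls that are not listed with the results. Also not listed there, Sdhc lost its call with library totals alone, and Pdp2 and Sucla2 with no filter on low counts. Idh3b lost its call in cells without markers of another cell type and in cells without a UMI of Xist as well.

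The Ldha to Ldhb ratio kept its direction in all 24 alternatives (-0.79 to -0.45), with an adjusted p of 0.0190 to 0.25. The difference of -0.79 was found where Malat1 took 3 to 5% of a cell's UMIs. It did not pass in cells without a UMI of Xist (-0.47; the cause was not tested), nor with fewer samples, as in libraries 1 to 4 with no replicate block (-0.55), similar libraries summed (-0.52), injured 1 and 2 alone (-0.51), without uninjured 5 and 6 (-0.56), and in 8 of the 10 left-out libraries (-0.56 to -0.46 over all 10). The Eno1 to Eno2 ratio passed in cells with at least 1% ribosomal protein UMIs (-0.45, exact permutation test, adjusted p = 0.0476) and with all 10 libraries as separate samples (-0.50, exact permutation test, adjusted p = 0.0381), where injured 3 and 4 count as 2 samples with shared cells; with 1 library left out it was -0.54 to -0.39, and over all alternatives -0.85 (cells without mCherry) to -0.27 (cells without markers of another cell type). The cause of the former was not tested. The adjusted p of this ratio was 0.0381 to 0.375 over the alternatives.

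Injured and uninjured libraries 1 to 4 share replicate numbers, but same-numbered libraries did not deviate together (r of -0.05, 0.01, -0.03 and -0.05), so that the numbers are only labels. With the number as a replicate block 8307 of 14820 genes tested (56.1%) and 7 members passed. Without it 8230 of 13943 genes tested (59.0%) and 8 members passed, the difference in members being Eno2. Both fits count injured 3 and 4, which share cells, as separate samples. With the block the Ldha to Ldhb difference was -0.55, with an adjusted p of 0.25 in an exact permutation test whose smallest p is 0.125.

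Precision is limited by 3 injured samples, of which 1 averages libraries with shared cells, by pooled animals, and by injured cells with a lower depth. Libraries differ in Xist, Malat1 and mCherry along with condition, and these cannot be told apart from it at this number of samples. Uninjured 5 and 6 had 7 and 8 cells with 3 to 5% of UMIs from Malat1, so that this alternative rests on few cells there. Without a UMI of mCherry there were 74 of 527 cells in injured 3 and 74 of 471 in injured 4. The averaged pair thus rests on few of its cells in that alternative. Thinned levels near that of 1 UMI, as for Ldha after injury, carry little information. RNA levels do not give enzyme amounts or flux.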

Other observations

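At the other end of the ranking across cells, and chosen after their values were seen, Ank2 (mean r of -0.499 with the summed members over the 10 libraries), Tenm4 (-0.477), Erc2 (-0.460), Rere (-0.456) and Ptprd (-0.455) had the lowest values of the 6860 genes compared. Of these Ank2 (log2 fold change 0.75), Erc2 (1.16) and Rere (0.61) rose after injury, while Tenm4 and Ptprd did not pass the test.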
